A study of Mus musculus with 20 samples.

Results

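Genes of nucleotide, folate and serine synthesis were examined in germinal centre B cells that carried or lacked the L252P substitution of Myd88. The 37 genes were a given list, matched by symbol to the deposited files, and all 37 were found among 23382 symbols. They fall into 6 branches: 6 genes of pyrimidine nucleotide synthesis, 7 of deoxynucleotide supply, 8 of purine ring synthesis, 8 of AMP and GMP formation and salvage, 5 of the folate one-carbon cycle and 3 of serine synthesis. All 37 passed the filter on low values, at least 1 TPM (transcripts scaled to gene length and to library total) in 5 or more libraries, as did 11386 genes in all.

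Dividing cells build purine and pyrimidine rings from amino acids, carbonate and one-carbon units carried by folate, on a ribose phosphate made by the PRPS enzymes. Serine made from glycolytic intermediates supplies those one-carbon units through the SHMT and MTHFD enzymes, with separate cytosolic and mitochondrial sets. Ribonucleotides are then reduced to the deoxynucleotides that DNA replication consumes. Germinal centres are sites of fast B cell division: centroblasts divide and mutate their antibody genes in the dark zone, and centrocytes in the light zone are selected by antigen and T cells. MYD88 is the adaptor of Toll-like and interleukin-1 receptors, and L252P is the mouse counterpart of a recurrent activating substitution of human B cell lymphoma.

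RNA was sequenced in 20 libraries, 5 in each of 4 groups. Mutant centrocytes and mutant centroblasts carried 1 copy of a Myd88 L252P allele (Myd88L252P +/-), and control centrocytes and control centroblasts were labelled WT for it. All 4 groups, controls included, were heterozygous for Cgamma1Cre, a Cre recombinase expressed from the C gamma 1 immunoglobulin locus, which is transcribed in germinal centre B cells and also in other B cells that switch to IgG1. The sort gate of centrocytes was B220+FAS+GL7+CXCR4-CD86+. The gate of centroblasts differed in the last markers, B220+FAS+GL7+CXCR4+CD86-. The labels give no age, sex or strain and do not state whether each replicate was a mouse of its own; every p-value here rests on the spread between these samples only, which may be technical. TPM per gene does not show which allele was expressed, so the genotype labels could not be checked from these values.

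All 9 markers of germinal centre B cells examined, among them Bcl6 and Fas, were present in each group, and their summed level was 7078 to 7883 TPM in mutant centrocytes, 8215 to 8907 TPM in control centrocytes, 8426 to 9524 TPM in mutant centroblasts and 8535 to 9918 TPM in control centroblasts. Centroblast mutants 4 and 5 stood apart from the other 18 libraries: ribosomal protein genes held 11.2% and 15.1% of their TPM, against 6.42% to 8.81% in the others, and 12895 and 12719 genes were above 0, against 13053 to 14092. For the synthesis genes, values or calls without these libraries are given beside a result where leaving them out ends or adds a call. They are also given where it moves a called value by more than 1.5 times. The deposited values hold no read total, so absolute depth is unknown; depth relative to centroblast control 1, read from the steps between low values, lay between 0.812 and 1.07. In bulk samples such as these, fewer cells of a type and less RNA per cell cannot be told apart.

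The synthesis genes were expressed in every library, at levels that spanned more than an order of magnitude. TPM is scaled to transcript length, so levels can be set beside each other between genes. Their summed level averaged 6214 ± 168 TPM in mutant centrocytes, 6033 ± 331 TPM in control centrocytes, 6890 ± 268 TPM in mutant centroblasts and 6774 ± 246 TPM in control centroblasts (SD, n = 5 each). Hprt, the salvage enzyme for hypoxanthine and guanine, had the highest mean of the 37 in both centrocyte groups, with 458 ± 37.5 TPM in mutants and 491 ± 41.6 TPM in controls. Cmpk1, the UMP and CMP kinase, had the highest mean in both centroblast groups. Impdh1, the less abundant of the enzymes that commit IMP to GMP, had the lowest mean in all 4 groups, between 10.8 and 16.03 TPM. The order at the top was not resolved beyond replicate spread: Nme2, second in mutant centrocytes with 429 ± 21.9 TPM, overlapped Hprt there.

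**Figure D1:**
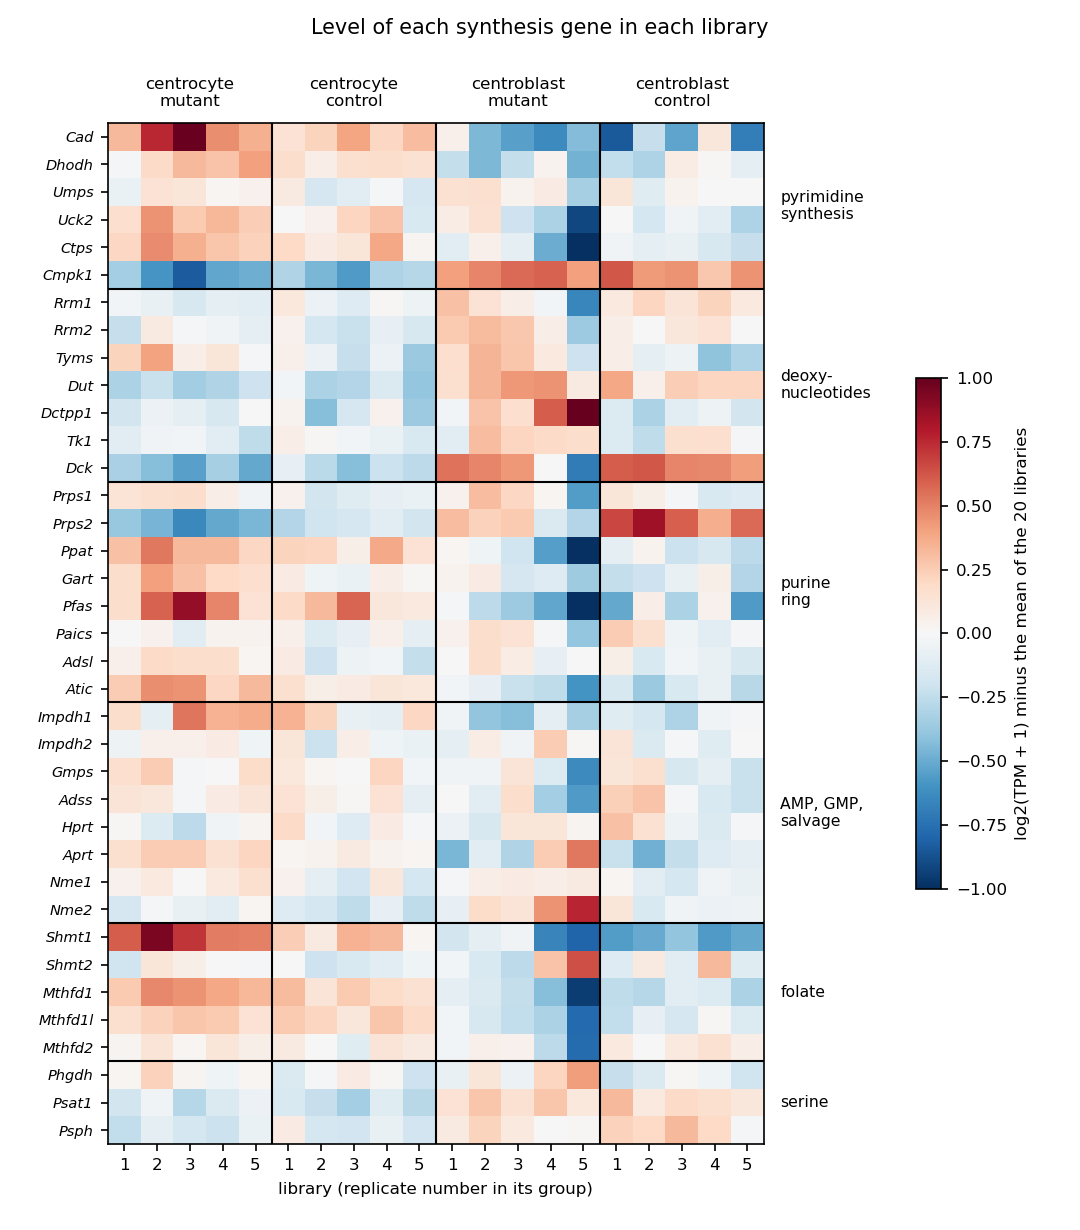
Level of each of the 37 genes (rows, by branch) in each of the 20 libraries (columns, 5 per group), as log2(TPM + 1) minus the mean of that gene over the 20 libraries; colours end at -1 and 1. Cmpk1, Dck and Prps2 are blue or pale in the centrocyte columns, Cad and Shmt1 are red there, and centroblast mutants 4 and 5 differ from mutants 1 to 3 in several rows.

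Centrocytes and centroblasts differed in a set of enzymes that ran in both directions. The comparison was made within each genotype by limma on log2(TPM + 1), with all 20 libraries sharing one estimate of spread and p-values adjusted by Benjamini-Hochberg over the 11386 genes; a gene was called at an adjusted p under 0.05. In mutants, 12 of the 37 genes were higher in centrocytes and 9 were lower, beside 48.8% and 12.6% of all genes called in those directions. In controls, 6 were higher and 6 were lower, beside 21.2% and 9.48% of all genes. The share of synthesis genes called higher was thus below that of all genes in mutants, and near it in controls. The 6 higher and the 6 lower calls of the controls were all among those of the mutants, in the same direction. The median log2 fold change of the 37 genes was 0.03 in mutants and 0.00 in controls, and that of all genes tested was 0.34 in mutants and 0.14 in controls.

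The balance of directions depended on how the libraries were scaled. With median-of-ratios scaling, which centres all genes near 0, 8 of the 37 genes were higher and 21 lower in mutant centrocytes, beside 29.6% and 28.9% of all genes, and 5 were higher and 9 lower in control centrocytes, beside 17.9% and 17.7%. The median log2 fold change of the 37 genes was then -0.32 in mutants and -0.14 in controls. Without centroblast mutants 4 and 5, the calls on TPM as deposited were 13 higher and 10 lower in mutants (35.8% and 14.9% of all genes) and 10 higher and 8 lower in controls (33.3% and 14.3%). The controls' own libraries are the same in that fit; the estimate of spread is what changed, and Ctps, Ppat, Dhodh, Aprt, Rrm1 and Rrm2 were the added calls.

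**Figure D2:**
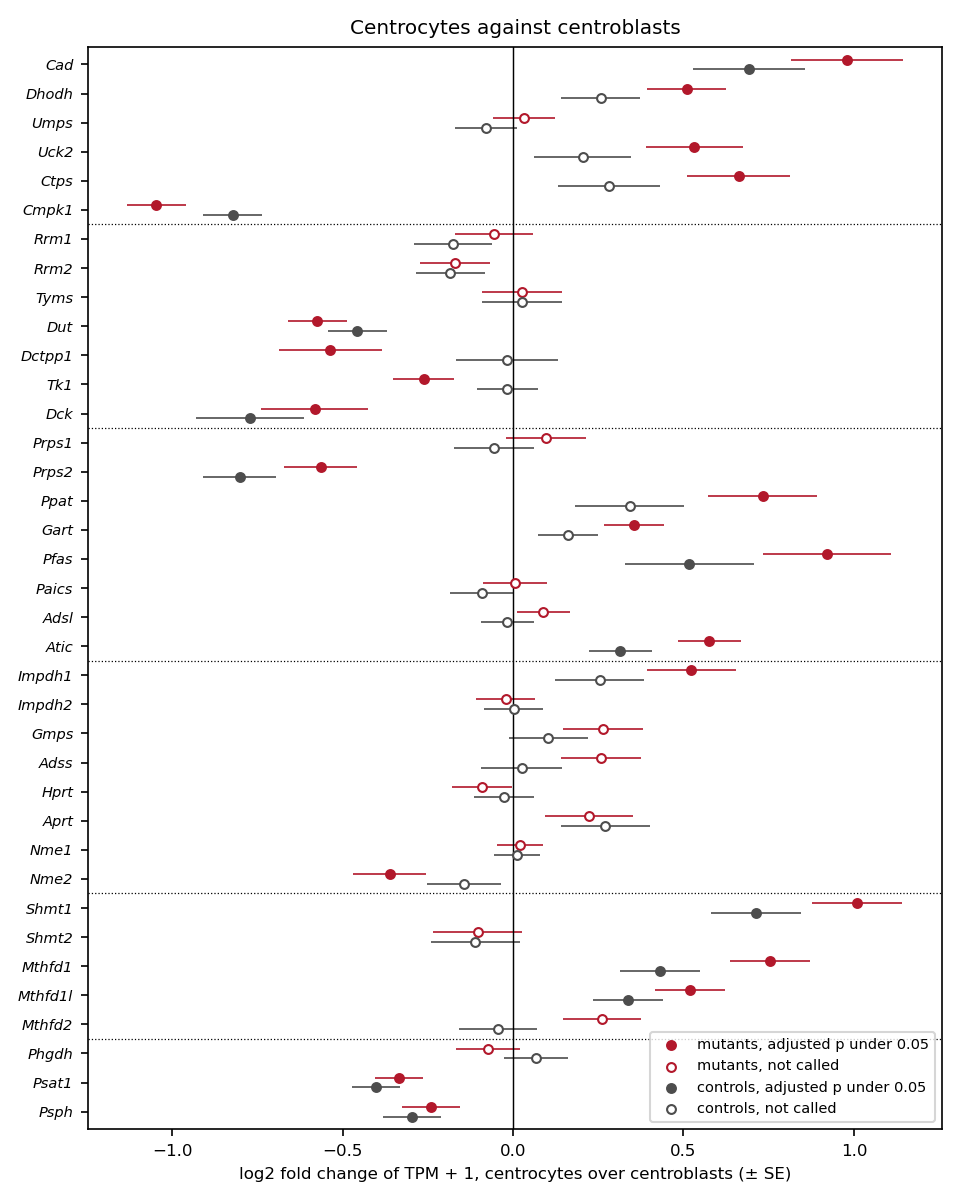
Log2 fold change of TPM + 1 between centrocytes and centroblasts for each gene (rows, by branch from pyrimidines at the top to serine at the bottom), with its SE; red points are mutants and grey points controls, filled where the adjusted p was under 0.05. Shmt1 (1.01 in mutants, 0.71 in controls) and Cad (0.98 and 0.69) lie farthest to the right and Cmpk1 (-1.05 and -0.82) farthest to the left.

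Several other features moved with zone in the same libraries. Their counts stand beside 48.8% of all genes called higher and 12.6% lower in mutant centrocytes, and 21.2% and 9.48% in control centrocytes. At an unadjusted p under 0.05, limma gave 52.2% of all genes higher in mutants and 29.6% in controls. Of 20 S phase genes, 0 rose and 9 fell in mutant centrocytes, and 0 rose and 8 fell in control centrocytes; at an unadjusted p under 0.05 limma gave 0 higher in either genotype. Of 20 genes of G2 and M phase, 0 rose and 14 fell in mutants, and 0 rose and 12 fell in controls, with 0 higher at an unadjusted p under 0.05. Myc, which binds promoters of many genes of nucleotide synthesis, had 94.4 ± 13.0 TPM in mutant centrocytes and 25.4 ± 9.14 TPM in mutant centroblasts, and 81.5 ± 8.31 TPM in control centrocytes and 24.8 ± 4.24 TPM in control centroblasts, log2 fold changes of 1.92 and 1.68 that passed the test. Macrophage markers rose with centrocytes too: 8 of 10 tested in each genotype, though their summed level, mostly Apoe, overlapped, at 665 to 1035 TPM in mutant centrocytes, 814 to 1092 TPM in control centrocytes, 591 to 1255 TPM in mutant centroblasts and 674 to 1135 TPM in control centroblasts. Apoe itself had lower means in centrocytes, 723 TPM in mutant centrocytes and 910 TPM in mutant centroblasts. In controls Apoe averaged 750 TPM in centrocytes and 841 TPM in centroblasts. Csf1r, a receptor that macrophages need, averaged 9.84 TPM in mutant centrocytes and 2.24 TPM in mutant centroblasts, and 13.7 TPM in control centrocytes and 2.73 TPM in control centroblasts. Plasma cell markers moved too: of 6 tested, 3 rose (Prdm1, Derl3 and Irf4) and 1 fell (Igj) in centrocytes of each genotype. Their summed level, mostly Igj, was 815 to 1376 TPM in mutant centrocytes and 1540 to 1898 TPM in mutant centroblasts, and 881 to 1129 TPM in control centrocytes and 1436 to 1822 TPM in control centroblasts, without overlap between zones. Sdc1, a defining plasma cell marker, had group means between 0.634 and 1.65 TPM. The part of division, of Myc, of macrophage RNA or of plasma cell RNA in the zone differences below was not tested.

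In the pyrimidine branch, 4 of 6 genes rose and 1 fell in mutant centrocytes, and 1 rose and 1 fell in control centrocytes. Of all genes, 48.8% rose and 12.6% fell in mutants, and 21.2% rose and 9.48% fell in controls. Cad, the multifunctional protein that begins the pyrimidine ring, had 44.3, 60.0, 70.7, 48.9 and 45.1 TPM in mutant centrocytes 1 to 5 and 36.4, 25.5, 23.8, 22.2 and 25.7 TPM in mutant centroblasts 1 to 5. In controls Cad had 39.0, 41.2, 46.5, 40.5 and 43.6 TPM in centrocytes and 19.2, 29.7, 24.1, 38.0 and 21.3 TPM in centroblasts. Every centrocyte library was above every centroblast library of its genotype, narrowly so in controls, where centroblast 4 at 38.0 TPM lay close to centrocyte 1 at 39.0 TPM. For Cad the log2 fold change was 0.98 ± 0.16 (SE) in mutants (adjusted p = 4.7e-05) and 0.69 ± 0.16 in controls (adjusted p = 0.0031).

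Cmpk1, which phosphorylates UMP and CMP to the diphosphates, had 369, 309.7, 261, 326 and 332 TPM in mutant centrocytes and 619.9, 656, 692, 702 and 619 TPM in mutant centroblasts. In controls Cmpk1 had 379, 340.3, 315, 377 and 382 TPM in centrocytes and 716, 626, 638, 561 and 637 TPM in centroblasts. The lowest centroblast library was well above the highest centrocyte library in both genotypes. Cmpk1 had a log2 fold change of -1.05 ± 0.09 in mutants (adjusted p = 6.9e-09) and -0.82 ± 0.09 in controls (adjusted p = 5.4e-07), the smallest adjusted p of the 37 genes in each. The ratio of Cmpk1 to Cad within a library, which no scaling of the library alters, was 3.69 to 8.33 in mutant centrocytes and 17.03 to 31.6 in mutant centroblasts, and 6.78 to 9.72 in control centrocytes and 14.8 to 37.3 in control centroblasts.

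Between them, Ctps, which aminates UTP to CTP, had 72.1, 87.0, 80.1, 75.9 and 73.5 TPM in mutant centrocytes and 57.5, 64.7, 58.3, 44.1 and 28.3 TPM in mutant centroblasts. The groups did not overlap, and mutants 4 and 5 were the lowest centroblasts. In controls Ctps had 71.8, 66.2, 68.0, 81.7 and 63.6 TPM in centrocytes and 60.9, 58.4, 59.1, 55.8 and 53.2 TPM in centroblasts, again without overlap. Ctps rose by log2 0.66 ± 0.15 in mutants (adjusted p = 0.00080). Its log2 fold change of 0.28 ± 0.15 in controls did not pass (adjusted p = 0.16). Without centroblast mutants 4 and 5 it was 0.36 ± 0.08 in mutants (adjusted p = 0.0014) and 0.28 ± 0.07 in controls (adjusted p = 0.0036). With median-of-ratios scaling and those libraries left out, the mutant call was lost (log2 0.19, adjusted p = 0.085). Dhodh, the mitochondrial enzyme that oxidises dihydroorotate, rose in mutant centrocytes by log2 0.51 ± 0.12 (adjusted p = 0.00082) and did not pass in controls. Without centroblast mutants 4 and 5, Dhodh was called higher in control centrocytes too. The same held when only the control libraries were fitted with limma (log2 0.26 ± 0.10, adjusted p = 0.043). Uck2, the uridine and cytidine kinase of salvage, rose in mutant centrocytes by log2 0.53, or 0.28 without centroblast mutants 4 and 5, and did not pass in controls. Dhodh and Uck2 lost the mutant call with median-of-ratios scaling, at log2 0.17 and 0.18. Umps, which closes the path to UMP, had means between 72.4 and 78.9 TPM in the 4 groups and was not called.

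The genes of deoxynucleotide supply that passed between zones were all lower in centrocytes. Of 7 genes, 0 rose and 4 fell in mutants, beside 48.8% and 12.6% of all genes. In controls 0 rose and 2 fell, beside 21.2% and 9.48%. At an unadjusted p under 0.05 limma gave 0 higher in either genotype, beside 52.2% of all genes in mutants and 29.6% in controls. Dut, which removes dUTP so that it does not enter DNA, had 180.4, 193, 176, 182 and 195 TPM in mutant centrocytes and 252, 285, 304, 308 and 239 TPM in mutant centroblasts. In controls Dut had 221, 180.1, 183, 203 and 172 TPM in centrocytes and 295, 233, 267, 261 and 261 TPM in centroblasts. Neither genotype had an overlap, and the log2 fold change was -0.57 ± 0.09 in mutants (adjusted p = 1.5e-05) and -0.46 ± 0.09 in controls (adjusted p = 0.00046).

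Dck, the deoxycytidine kinase of salvage, had 268, 250, 230.4, 267 and 235 TPM in mutant centrocytes and 490.0, 473, 453, 338 and 207 TPM in mutant centroblasts. Centroblast mutant 5, at 207 TPM, was below every mutant centrocyte library, and the other 4 were above them all. In controls Dck had 318, 279, 249, 289 and 281 TPM in centrocytes and 513, 517, 470.5, 468 and 449 TPM in centroblasts, with no overlap. Its log2 fold change was -0.58 ± 0.16 in mutants (adjusted p = 0.0034) and -0.77 ± 0.16 in controls (adjusted p = 0.00091); without centroblast mutants 4 and 5 the mutant value was -0.92 ± 0.08 (adjusted p = 1.3e-08). Dctpp1, which hydrolyses dCTP and modified forms of it, had 176, 192, 188, 178 and 199 TPM in mutant centrocytes and 196, 244, 225, 305 and 442 TPM in mutant centroblasts, where libraries 4 and 5 were the highest. The zones overlapped at 199 and 196 TPM. Its log2 fold change was -0.54 ± 0.15 in mutants (adjusted p = 0.0043), -0.24 ± 0.10 without centroblast mutants 4 and 5 (adjusted p = 0.047), and -0.02 ± 0.15 in controls, which did not pass (adjusted p = 0.94). Tk1, the thymidine kinase made in S phase, fell in mutants, with a log2 fold change of -0.26 ± 0.09 (adjusted p = 0.016), and was at -0.02 ± 0.09 in controls (adjusted p = 0.91). The difference between these values did not pass the interaction test.

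Rrm1 and Rrm2, the large and small subunits of ribonucleotide reductase, were among the most abundant of the 37. Rrm1 averaged 350.2 ± 11.5 TPM in mutant centrocytes and 373 ± 82.7 TPM in mutant centroblasts, and 367 ± 23.0 TPM in control centrocytes and 415 ± 18.3 TPM in control centroblasts. Rrm2 averaged 382 ± 30.9 TPM and 436 ± 77.1 TPM in the mutant centrocytes and centroblasts, and 367 ± 26.6 TPM and 416 ± 18.9 TPM in the control centrocytes and centroblasts. Neither was called in the main fit of all libraries. With array weights in limma, which also keep all libraries, both were lower in centrocytes of both genotypes. The adjusted p was 0.0041 in mutants and 0.011 in controls for Rrm1, and 0.00015 and 0.0059 for Rrm2. Both also passed in controls when only the control libraries were fitted (adjusted p = 0.027 and 0.026). Without centroblast mutants 4 and 5, both fell in centrocytes. The log2 fold changes were then -0.26 ± 0.06 in mutants (adjusted p = 0.0025) and -0.18 ± 0.06 in controls (adjusted p = 0.014) for Rrm1. For Rrm2 they were -0.34 ± 0.07 in mutants (adjusted p = 0.00051) and -0.18 ± 0.06 in controls (adjusted p = 0.018).

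In the purine ring branch, 4 of 8 genes rose and 1 fell in mutant centrocytes, and 2 rose and 1 fell in control centrocytes. The gene that fell was Prps2 in both. These counts were near the shares of all genes, 48.8% higher and 12.6% lower in mutants and 21.2% and 9.48% in controls. The promoters of 4 genes of the branch are shown: Ppat and Paics, neighbours read in opposite directions, Atic, and Prps2. They are compared with the expression values that follow. These are the genes of the branch whose windows held CACGTG or TTTCCCGC. Gart and Adsl had windows without a match, Prps1 held another motif, and Pfas had no window. Each window runs from 250 bases before to 50 bases after the start site in RefSeq, build GRCm38.p6, the assembly behind mm10, and is written 5′ to 3′ on the strand of the gene. Capitals mark CACGTG, the E-box that MYC and USF proteins bind, in Atic and Paics, and TTTCCCGC or its reverse complement, an E2F type element, in Ppat and Prps2. The windows lie at chr5:76951529-76951828 for Ppat (minus strand), chr5:76951052-76951351 for Paics (plus strand), chr1:71556906-71557205 for Atic (plus strand) and chrX:167382700-167382999 for Prps2 (minus strand).
Ppat: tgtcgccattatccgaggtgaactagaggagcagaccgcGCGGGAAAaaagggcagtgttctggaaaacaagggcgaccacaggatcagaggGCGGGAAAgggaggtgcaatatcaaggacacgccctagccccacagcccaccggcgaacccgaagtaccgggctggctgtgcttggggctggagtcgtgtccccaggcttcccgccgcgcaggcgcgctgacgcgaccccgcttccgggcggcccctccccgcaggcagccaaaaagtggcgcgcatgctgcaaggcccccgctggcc
Paics: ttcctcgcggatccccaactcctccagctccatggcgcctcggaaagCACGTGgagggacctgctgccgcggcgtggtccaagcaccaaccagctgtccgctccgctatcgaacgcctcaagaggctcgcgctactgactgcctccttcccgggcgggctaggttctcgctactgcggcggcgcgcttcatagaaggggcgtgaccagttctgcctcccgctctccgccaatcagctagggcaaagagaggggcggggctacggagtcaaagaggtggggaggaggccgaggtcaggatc
Atic: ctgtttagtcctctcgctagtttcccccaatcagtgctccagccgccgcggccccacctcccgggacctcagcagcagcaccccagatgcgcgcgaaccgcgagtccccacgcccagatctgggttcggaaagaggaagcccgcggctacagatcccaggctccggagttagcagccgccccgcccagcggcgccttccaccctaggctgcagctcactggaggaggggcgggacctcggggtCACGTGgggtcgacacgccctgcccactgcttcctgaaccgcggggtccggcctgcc
Prps2: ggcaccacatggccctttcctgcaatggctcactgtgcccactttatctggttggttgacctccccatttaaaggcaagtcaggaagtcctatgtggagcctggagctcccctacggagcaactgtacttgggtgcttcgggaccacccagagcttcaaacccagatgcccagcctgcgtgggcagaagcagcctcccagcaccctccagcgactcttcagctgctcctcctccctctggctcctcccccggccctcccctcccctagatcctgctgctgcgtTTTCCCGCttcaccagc

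Prps2, 1 of the synthetases that make phosphoribosyl pyrophosphate, had 135, 127, 112, 123 and 128 TPM in mutant centrocytes and 217, 206, 211, 159 and 143 TPM in mutant centroblasts. In controls Prps2 had 143, 153, 157, 162 and 154 TPM in centrocytes and 279, 318, 267, 226 and 260.4 TPM in centroblasts. Neither genotype had an overlap between zones, though centroblast mutants 4 and 5 came nearest. Prps2 had a log2 fold change of -0.56 ± 0.11 in mutants (adjusted p = 0.00016) and -0.80 ± 0.11 in controls (adjusted p = 9.6e-06). Its paralogue Prps1 had 65.8 to 76.1 TPM in mutant centrocytes and 45.5 to 83.6 TPM in mutant centroblasts, and 59.4 to 69.6 TPM in control centrocytes and 60.4 to 73.5 TPM in control centroblasts, and was not called in either genotype.

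Of the ring-building enzymes, Pfas, which carries out the FGAM synthase step, had 20.7, 27.9, 34.2, 25.9 and 20.2 TPM in mutant centrocytes and 17.95, 14.97, 13.9, 12.4 and 7.60 TPM in mutant centroblasts. In controls Pfas had 20.9, 22.9, 27.7, 19.8 and 19.4 TPM in centrocytes and 12.5, 19.1, 14.4, 18.7 and 12.0 TPM in centroblasts. The groups did not overlap in either genotype, with a gap in controls of 19.4 against 19.1 TPM. Pfas rose by log2 0.92 ± 0.19 in mutants (adjusted p = 0.00033) and 0.52 ± 0.19 in controls (adjusted p = 0.041). The control call was lost on leaving out any 1 of 6 libraries, centroblast controls 1, 3 and 5 and centrocyte controls 1, 2 and 3, with adjusted p between 0.052 and 0.12.

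Ppat, which commits phosphoribosyl pyrophosphate to purines, had 65.7, 77.2, 67.1, 67.0 and 61.7 TPM in mutant centrocytes and 54.0, 51.7, 46.5, 36.0 and 22.4 TPM in mutant centroblasts. In controls Ppat had 62.4, 62.1, 55.6, 69.6 and 59.2 TPM in centrocytes and 50.03, 54.6, 45.8, 47.6 and 44.5 TPM in centroblasts. All centrocyte libraries lay above all centroblast libraries of the same genotype. Ppat rose by log2 0.73 ± 0.16 in mutants (adjusted p = 0.00059). Its log2 fold change of 0.34 ± 0.16 in controls did not pass (adjusted p = 0.11). Without centroblast mutants 4 and 5 it was 0.41 ± 0.09 in mutants (adjusted p = 0.00079) and 0.34 ± 0.08 in controls (adjusted p = 0.0012).

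Paics, whose protein carries out a pair of later ring steps, averaged 366 ± 15.8 TPM in mutant centrocytes and 367 ± 53.2 TPM in mutant centroblasts, and 356 ± 21.9 TPM in control centrocytes and 379.8 ± 40.9 TPM in control centroblasts. It was not called in either genotype. The ratio of Ppat to Paics was 0.165 to 0.205 in mutant centrocytes and 0.0803 to 0.143 in mutant centroblasts, and 0.161 to 0.187 in control centrocytes and 0.115 to 0.141 in control centroblasts, without overlap between zones. Their annotated genes overlap by 277 bases at the 5′ ends (Ppat at chr5:76913249-76951578, Paics at chr5:76951302-76967509). The kit was stranded, but whether the authors counted by strand is not given in the sources used here, so reads in the overlap may have been shared.

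Atic, which closes the purine ring, rose in centrocytes by log2 0.58 ± 0.09 in mutants (adjusted p = 2.9e-05) and 0.31 ± 0.09 in controls (adjusted p = 0.013). It averaged 198 ± 15.7 TPM in mutant centrocytes and 133 ± 19.5 TPM in mutant centroblasts, and 168 ± 4.56 TPM in control centrocytes and 135 ± 10.9 TPM in control centroblasts. The control call was lost with median-of-ratios scaling (log2 0.17, adjusted p = 0.096). Gart, a trifunctional ring enzyme, rose in mutants by log2 0.35, but the value was -0.0006 with median-of-ratios scaling. Adsl, which acts both in the ring path and in AMP formation, had means between 135 and 156 TPM and was not called.

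Promoter motifs were found in genes that were called between zones and in genes that were not. Of the 37 genes, 35 had a window in the RefSeq table, and motifs were searched on both strands. CACGTG was found in 5 of 35 (14.3%), Atic, Impdh2, Nme1, Paics and Tyms, against 8.09% of all 27025 genes in the table. Of these 5, Atic was called between zones, with its motif 7 bases before the start site, and Paics, with its motif 203 bases before, was not called. TTTCCCGC was found in 2 of 35 (5.71%), Ppat at 211 and 158 bases before the start site and Prps2 at 33 bases after it, against 1.24% of all genes. Ppat was higher in mutant centrocytes and Prps2 lower. A match with TGATGNAAN, the CEBP-ATF response element, was found in Prps1 only (2.86%, against 4.5% of all genes), and TTTGGCGC, also of E2F type, in 0 of 35, against 0.585% of all genes. A match is a description of letters in the window and not evidence of binding.

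Formation of AMP and GMP and salvage showed the fewest zone calls. Of 8 genes, 1 rose and 1 fell in mutants, beside 48.8% and 12.6% of all genes. In controls 0 rose and 0 fell, beside 21.2% and 9.48%. There limma gave 1 higher, Aprt, and 0 lower at an unadjusted p under 0.05, beside 29.6% and 13% of all genes. Impdh1 had 14.8, 12.2, 19.3, 16.8 and 17.1 TPM in mutant centrocytes and 12.7, 9.66, 9.43, 12.1 and 10.1 TPM in mutant centroblasts. In controls Impdh1 had 16.8, 15.4, 12.3, 12.1 and 15.2 TPM in centrocytes and 11.9, 11.4, 10.3, 12.7 and 12.9 TPM in centroblasts. The groups overlapped in both genotypes, and the log2 fold change was 0.52 ± 0.13 in mutants (adjusted p = 0.0018) and 0.25 ± 0.13 in controls (adjusted p = 0.14). The mutant call was lost with median-of-ratios scaling, at log2 0.19 (adjusted p = 0.27). Impdh2, the major isoform of dividing lymphocytes, had 51.5 to 56.5 TPM in mutant centrocytes and 49.8 to 63.7 TPM in mutant centroblasts, and 45.8 to 57.9 TPM in control centrocytes and 48.1 to 58.4 TPM in control centroblasts, with log2 fold changes of -0.02 ± 0.09 and 0.00 ± 0.09.

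Nme2, a nucleoside diphosphate kinase, had 402, 445, 428, 416 and 457 TPM in mutant centrocytes and 427, 513, 494, 618 and 764 TPM in mutant centroblasts. In controls Nme2 had 413, 399.8, 379, 425 and 378 TPM in centrocytes and 491, 406, 441, 434 and 435 TPM in centroblasts. Centroblast mutants 4 and 5 were the highest of the 20 libraries. The log2 fold change in mutants was -0.36 ± 0.11 (adjusted p = 0.0065) with them and -0.15 ± 0.07 without them (adjusted p = 0.085), and the control value of -0.14 ± 0.11 was not called. Nme1, a paralogue 2668 bases away on chromosome 11, had 378 to 423 TPM in mutant centrocytes and 375 to 403 TPM in mutant centroblasts, and 331 to 409 TPM in control centrocytes and 334 to 383 TPM in control centroblasts. The pair is similar in sequence, so how reads were divided between them is uncertain. Gmps and Adss, which make GMP and adenylosuccinate from XMP and IMP, and Hprt were not called. Aprt, the salvage enzyme for adenine, had 124 to 130.3 TPM in control centrocytes and 87.4 to 115 TPM in control centroblasts, without overlap. It was not called in the main fit of all libraries. With array weights in limma it was higher in centrocytes of both genotypes (adjusted p = 0.00021 in mutants and 0.0053 in controls). Without centroblast mutants 4 and 5 it was called in both genotypes (log2 0.49 ± 0.08 in mutants and 0.27 ± 0.07 in controls).

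In the folate branch, 3 of 5 genes rose in centrocytes in both genotypes and 0 fell. The shares of all genes were 48.8% higher and 12.6% lower in mutants, and 21.2% and 9.48% in controls. Shmt1, the cytosolic serine hydroxymethyltransferase, had 76.7, 96.6, 82.8, 71.8 and 71.2 TPM in mutant centrocytes and 43.9, 46.8, 48.8, 31.2 and 28.3 TPM in mutant centroblasts. In controls Shmt1 had 59.5, 53.1, 63.8, 63.0 and 50.6 TPM in centrocytes and 33.6, 35.0, 37.8, 33.3 and 34.7 TPM in centroblasts. The zones did not overlap in either genotype. Shmt1 rose by log2 1.01 ± 0.13 in mutants (adjusted p = 2.6e-06) and 0.71 ± 0.13 in controls (adjusted p = 0.00034).

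Shmt2, the mitochondrial counterpart, was more abundant than Shmt1 in every library and was not called. It had 223, 277, 266, 255 and 252 TPM in mutant centrocytes and 250.2, 229.8, 213, 311 and 399 TPM in mutant centroblasts, and 257, 221, 229, 237 and 248 TPM in control centrocytes and 233, 272, 237, 319 and 235 TPM in control centroblasts. The ratio of Shmt1 to Shmt2 was 0.281 to 0.349 in mutant centrocytes and 0.0710 to 0.230 in mutant centroblasts, and 0.204 to 0.279 in control centrocytes and 0.104 to 0.1595 in control centroblasts, so each zone was separate from the other within a genotype.

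Mthfd1, the cytosolic trifunctional folate enzyme, had 116, 136, 133, 127 and 122 TPM in mutant centrocytes and 90.5, 87.7, 82.1, 71.7 and 49.7 TPM in mutant centroblasts. In controls Mthfd1 had 121, 106, 116, 110.0 and 108 TPM in centrocytes and 80.9, 79.2, 89.4, 87.8 and 77.4 TPM in centroblasts. No zone overlapped the other, and the log2 fold change was 0.75 ± 0.12 in mutants (adjusted p = 2e-05) and 0.43 ± 0.12 in controls (adjusted p = 0.0077). Mthfd1l, the mitochondrial formate-releasing enzyme, had 86.5, 90.9, 94.2, 93.1 and 85.9 TPM in mutant centrocytes and 76.1, 69.4, 65.3, 62.1 and 44.8 TPM in mutant centroblasts. In controls Mthfd1l had 93.3, 90.2, 84.0, 93.9 and 88.8 TPM in centrocytes and 65.3, 73.1, 69.0, 78.0 and 70.5 TPM in centroblasts. The zones were again apart, with log2 fold changes of 0.52 ± 0.10 in mutants (adjusted p = 0.00025) and 0.34 ± 0.10 in controls (adjusted p = 0.017).

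Mthfd2, the mitochondrial dehydrogenase that is high in embryos and many tumours, averaged 125 ± 4.51 TPM in mutant centrocytes and 107 ± 22.9 TPM in mutant centroblasts, and 123 ± 8.27 TPM in control centrocytes and 126 ± 5.19 TPM in control centroblasts. It was not called, with log2 fold changes of 0.26 ± 0.11 in mutants (adjusted p = 0.051) and -0.04 ± 0.11 in controls. The mutant value was 0.05 ± 0.06 without centroblast mutants 4 and 5 (adjusted p = 0.57). The ratio of Mthfd1l to Mthfd2 was 0.693 to 0.778 in mutant centrocytes and 0.530 to 0.649 in mutant centroblasts, and 0.698 to 0.765 in control centrocytes and 0.510 to 0.616 in control centroblasts. That ratio was separate between zones and overlapped between genotypes within each zone.

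**Figure D3:**
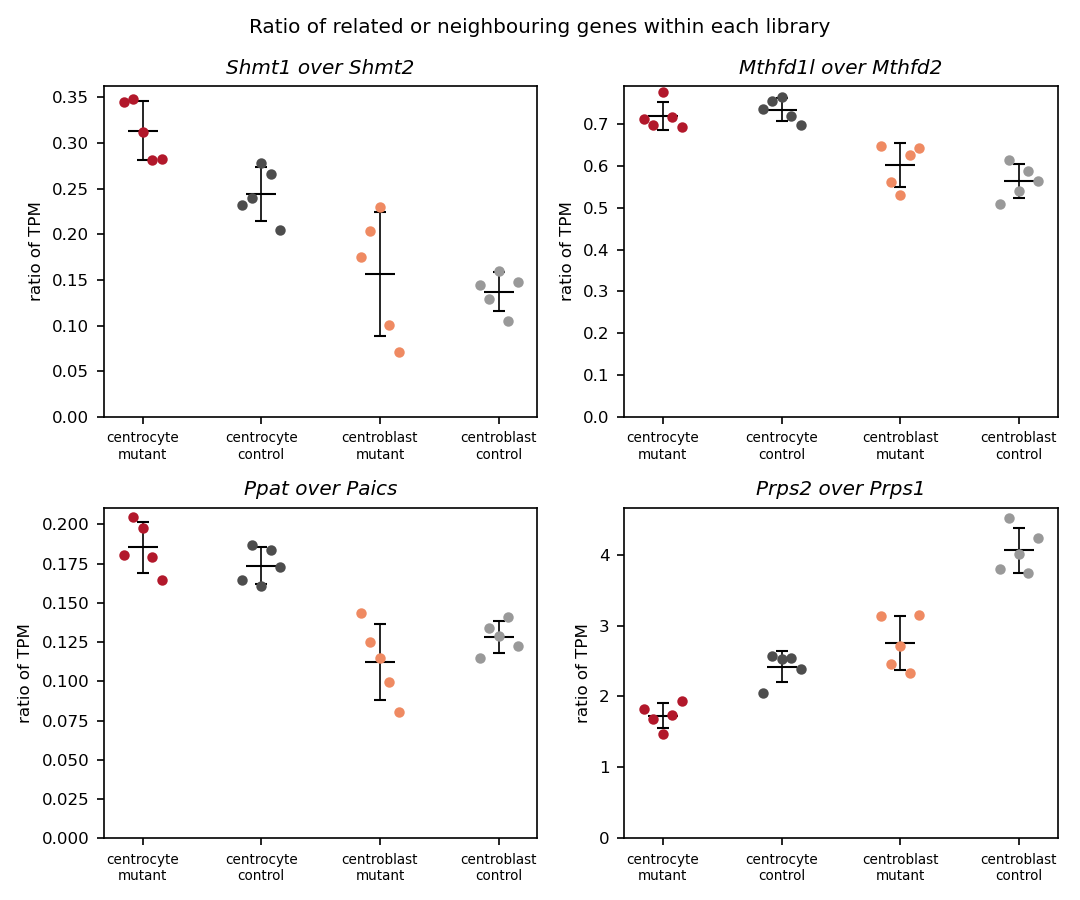
Ratio of TPM of related or neighbouring genes within each library (points), by group, with the mean and SD of 5 libraries (bars). Within each genotype the centrocyte points lie above the centroblast points for Shmt1 over Shmt2, Mthfd1l over Mthfd2 and Ppat over Paics, and below them for Prps2 over Prps1, whose genotypes are also apart within each zone.

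Of 3 genes of serine synthesis, 0 rose and 2 fell in centrocytes in both genotypes. Beside these, 48.8% of all genes rose and 12.6% fell in mutants, and 21.2% and 9.48% in controls. At an unadjusted p under 0.05 limma gave 0 of the 3 higher, beside 52.2% of all genes in mutants and 29.6% in controls. Psat1, the aminotransferase of the middle step, had 241, 267, 226, 248 and 264 TPM in mutant centrocytes and 304, 333, 305, 332 and 296 TPM in mutant centroblasts. In controls Psat1 had 248, 233, 216, 253 and 226 TPM in centrocytes and 343, 293, 314, 307 and 298 TPM in centroblasts. Neither genotype had an overlap, and the log2 fold change was -0.33 ± 0.07 in mutants (adjusted p = 0.00043) and -0.40 ± 0.07 in controls (adjusted p = 0.00021).

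Psph, the phosphatase of the last step, had 40.9, 45.9, 43.1, 41.9 and 46.4 TPM in mutant centrocytes and 51.9, 57.0, 52.3, 48.7 and 49.1 TPM in mutant centroblasts. In controls Psph had 51.6, 43.2, 42.7, 46.3 and 42.6 TPM in centrocytes and 57.4, 56.0, 61.5, 56.1 and 48.2 TPM in centroblasts. The zones were apart in mutants and overlapped in controls, where centrocyte 1 was above centroblast 5. Psph had a log2 fold change of -0.24 ± 0.09 in mutants (adjusted p = 0.018) and -0.30 ± 0.09 in controls (adjusted p = 0.012). The mutant call was lost without centroblast mutant 2 (adjusted p = 0.051). Phgdh, which commits a glycolytic intermediate to serine, averaged 124 ± 9.62 TPM in mutant centrocytes and 131 ± 19.2 TPM in mutant centroblasts, and 115 ± 9.49 TPM in control centrocytes and 109.9 ± 8.02 TPM in control centroblasts, and was not called.

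Counted by overlap alone, 10 of the 37 genes in mutants had every centrocyte library above every centroblast library and 5 had every one below, beside 28.7% and 7.91% of all genes tested. In controls 9 were above and 5 below, beside 17% and 9.51%. The genes below in both genotypes were Cmpk1, Dut, Prps2 and Psat1.

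The second question was whether the Myd88 allele altered these genes within a zone. In centroblasts, 1 of the 37 genes was higher in mutants, Dctpp1, and 1 lower, Prps2, beside 0.905% and 3.38% of all genes. In centrocytes, 0 were higher and 0 lower, beside 0.896% and 0.307% of all genes; at an unadjusted p under 0.05 limma gave 6 higher and 1 lower, beside 6.25% and 3.35% of all genes at that threshold. The median log2 fold change of the 37 genes was 0.01 in centroblasts and 0.09 in centrocytes, against -0.16 and 0.02 for all genes tested. The genotype comparisons share their libraries with the zone comparisons above.

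Prps2 had lower values in every mutant library than in any control library of its zone, as listed above. In centroblasts it averaged 187 ± 33.7 TPM in mutants and 270.0 ± 33.1 TPM in controls, a log2 fold change of -0.54 ± 0.11 (adjusted p = 0.0093). In centrocytes it averaged 125 ± 8.31 TPM in mutants and 154 ± 7.0 TPM in controls, a log2 fold change of -0.30 ± 0.11 that did not pass (adjusted p = 0.25). Without centroblast mutants 4 and 5 the values were -0.34 ± 0.08 in centroblasts and -0.30 ± 0.07 in centrocytes, and both passed (adjusted p = 0.024 in each). With median-of-ratios scaling both passed as well, at -0.35 ± 0.08 (adjusted p = 0.019) and -0.33 ± 0.08 (adjusted p = 0.045). The centroblast call was lost when the fit held only the 10 centroblast libraries (adjusted p = 0.13).

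Prps1 leaned the other way between genotypes, with 72.5 ± 4.27 TPM in mutant centrocytes and 63.8 ± 3.79 TPM in control centrocytes. In centroblasts Prps1 averaged 69.0 ± 14.6 TPM in mutants and 66.5 ± 5.61 TPM in controls. It was called higher there only with some settings, among them array weights in limma (log2 0.26, adjusted p = 0.034). The ratio of Prps2 to Prps1 within each library, to which both genes add, gave the same order of genotypes as Prps2. It was 1.82, 1.68, 1.47, 1.74 and 1.94 in mutant centrocytes and 2.05, 2.57, 2.53, 2.55 and 2.39 in control centrocytes. In centroblasts it was 3.13, 2.46, 2.71, 2.32 and 3.15 in mutants and 3.80, 4.51, 4.01, 3.74 and 4.23 in controls. Mutants lay below controls without overlap in both zones, with centroblast mutants 4 and 5, at 2.32 and 3.15, at either end of the mutant centroblasts. Only Prps2 of the 37 genes had all mutants below all controls in centroblasts or in centrocytes, beside 2.99% and 1.99% of all genes tested.

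Dctpp1 had 196, 244, 225, 305 and 442 TPM in mutant centroblasts and 182, 160.3, 184, 192 and 176 TPM in control centroblasts. The groups did not overlap, and centroblast mutants 4 and 5 were the highest. The log2 fold change was 0.60 ± 0.15 (adjusted p = 0.030) with all libraries and 0.30 without centroblast mutants 4 and 5, which did not pass (adjusted p = 0.10). The call was also lost on leaving out 1 of centroblast controls 2, 3, 4 and 5 or centroblast mutant 4, with adjusted p of Dctpp1 between 0.052 and 0.085, with no filter on low values (adjusted p = 0.057), and with the centroblast libraries alone (adjusted p = 0.21). It was the only 1 of the 37 genes with all mutant centroblasts above all controls, beside 0.755% of all genes. In centrocytes Dctpp1 had 176 to 199 TPM in mutants and 148 to 205 TPM in controls, a log2 fold change of 0.08 ± 0.15.

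Shmt1 had all mutant centrocytes, with a mean of 79.8 ± 10.5 TPM, above all control centrocytes, with a mean of 58.0 ± 5.90 TPM. The log2 fold change was 0.45 ± 0.13 and did not pass in the main fit of all 20 libraries (adjusted p = 0.12). It passed without centroblast mutants 4 and 5 (adjusted p = 0.0047), with median-of-ratios scaling (0.42 ± 0.09, adjusted p = 0.014) and with the centrocyte libraries alone (adjusted p = 0.027). In centroblasts, mutants 1 to 3 were above all controls and mutants 4 and 5 below them all, and the log2 fold change was 0.15 ± 0.13 (adjusted p = 0.42) in the main fit and 0.41 ± 0.10 (adjusted p = 0.022) without mutants 4 and 5. With array weights in limma and all libraries it was 0.36 ± 0.10 (adjusted p = 0.027). Gart, Atic and Aprt were the other genes with all mutant centrocytes above all controls, 4 of 37 with Shmt1, beside 2.63% of all genes tested. Their log2 fold changes were 0.24, 0.23 and 0.17, and none passed in the main fit of all 20 libraries. Gart and Atic passed when only the centrocyte libraries were fitted (adjusted p = 0.048 and 0.047) and with array weights (adjusted p = 0.036 and 0.028). Adsl, whose genotypes overlapped in centrocytes, also passed there with array weights (log2 0.24, adjusted p = 0.021). It did not pass with only the centrocyte libraries (log2 0.21, adjusted p = 0.12).

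Tyms, which makes dTMP and is the main target of fluoropyrimidines, had 59.0, 67.0, 53.0, 55.0 and 49.99 TPM in mutant centrocytes and 52.4, 48.4, 42.9, 48.4 and 38.7 TPM in control centrocytes. In centroblasts it had 56.8, 64.0, 61.4, 54.0 and 43.7 TPM in mutants and 52.8, 47.0, 48.7, 37.9 and 40.5 TPM in controls. The genotypes overlapped in both zones, and the log2 fold change was 0.29 ± 0.12 in each (adjusted p = 0.35 in centrocytes and 0.11 in centroblasts). With array weights it passed in both, at 0.34 ± 0.09 in centrocytes (adjusted p = 0.027) and 0.44 ± 0.10 in centroblasts (adjusted p = 0.00996). In centroblasts it was 0.42 ± 0.11 without mutants 4 and 5 (adjusted p = 0.043) and 0.48 ± 0.11 with median-of-ratios scaling (adjusted p = 0.013). Without those 2 libraries the counts were 2 higher (Tyms and Shmt1) and 1 lower in centroblasts, beside 2.13% and 1.44% of all genes, and 1 higher and 1 lower in centrocytes, beside 2.27% and 1.12%.

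**Figure D4:**
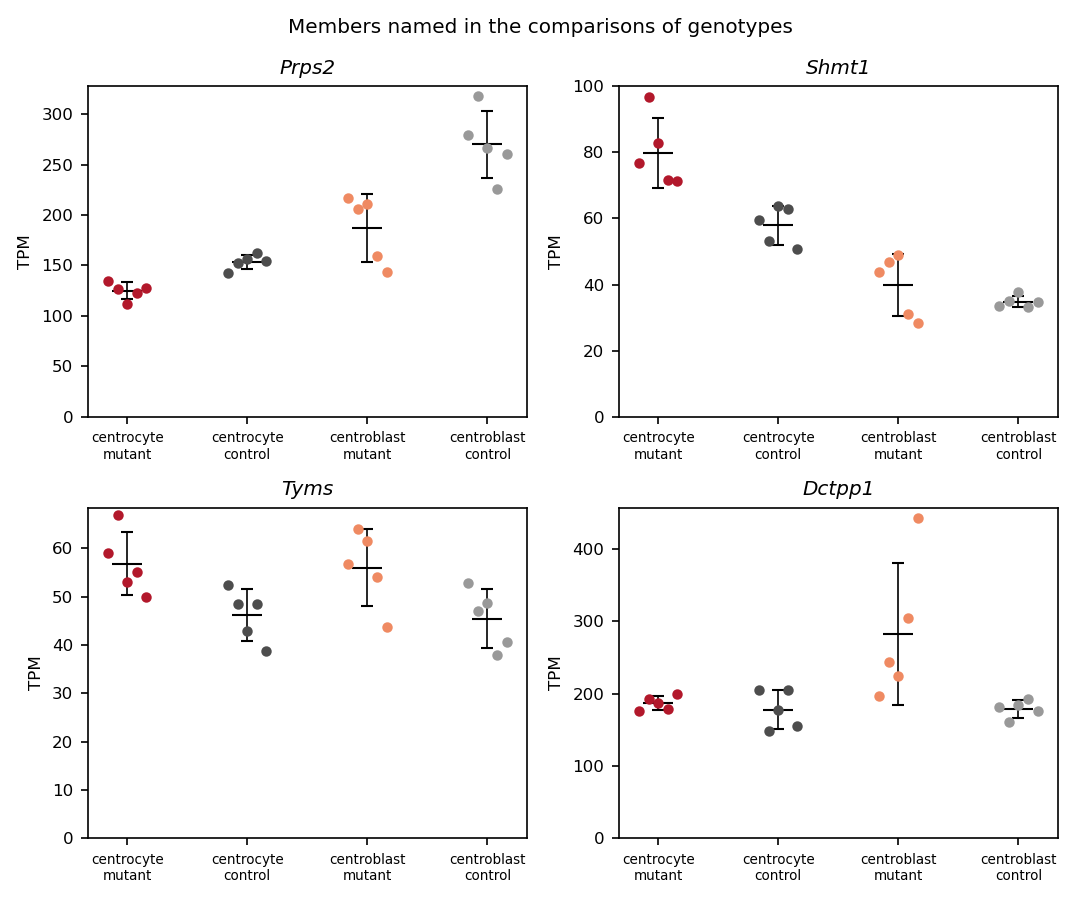
TPM of Prps2, Shmt1, Tyms and Dctpp1 in each library (points), by group, with the mean and SD of 5 libraries (bars). Prps2 is lower in mutants in both zones without overlap, Shmt1 is higher in all mutant centrocytes, and the highest Dctpp1 points are centroblast mutants 4 and 5 at 305 and 442 TPM.

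The other branches held no genotype call in centroblasts. In centroblasts the pyrimidine, AMP and GMP, folate and serine branches had 0 higher and 0 lower. At an unadjusted p under 0.05, limma gave 0 genes of the pyrimidine branch and 1 higher of AMP and GMP formation and salvage. It also gave 1 lower of the folate branch and 1 higher of the serine branch. Of all genes, 5.2% were higher and 25.1% lower at that threshold. Erythroid markers moved with genotype in the same libraries: their summed level was 233 to 580 TPM in mutant centrocytes, 41.6 to 273 TPM in control centrocytes, 323 to 808 TPM in mutant centroblasts and 22.8 to 270.4 TPM in control centroblasts. Of 4 tested, 1 rose in mutant centrocytes and 3 in mutant centroblasts, beside 0.896% and 0.905% of all genes. Hba-a1, Hba-a2 and Hbb-b2 were listed at 0 in all 4 groups. The part of erythroid RNA in the genotype values was not tested.

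Whether the genotype difference itself differed between zones was tested by the interaction. Of the 37 genes, 0 passed in either direction, beside 0.0176% of all genes; at an unadjusted p under 0.05 limma gave 0 positive and 1 negative, beside 9.72% and 1.89% of all genes. The interaction, as centrocyte minus centroblast log2 fold change, was 0.24 ± 0.15 for Prps2, 0.30 ± 0.19 for Shmt1 and -0.52 ± 0.21 for Dctpp1 (adjusted p = 0.42, 0.42 and 0.40). The effect of the allele on any of these genes was therefore not shown to differ between centrocytes and centroblasts.

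Of 63 other genes of these pathways, 53 were tested. In mutants 20 were higher and 14 lower in centrocytes, beside 48.8% and 12.6% of all genes, and in controls 11 were higher and 8 lower, beside 21.2% and 9.48%. Slc19a1, the reduced folate carrier, had 20.5 ± 4.52 TPM in mutant centrocytes and 7.37 ± 1.86 TPM in mutant centroblasts, and 15.8 ± 1.91 TPM in control centrocytes and 7.57 ± 1.11 TPM in control centroblasts, log2 fold changes of 1.37 and 0.98. Both passed the test. Between genotypes, 1 of the 53 was higher in mutant centroblasts (Gcsh, a subunit of the glycine cleavage system), beside 0.905% of all genes. In the same cells 2 were lower (Ampd3, an AMP deaminase, and Adk, adenosine kinase), beside 3.38%. In centrocytes 0 were higher and 1 lower (Ada, adenosine deaminase, log2 -0.36, adjusted p = 0.029), beside 0.896% and 0.307%. There limma gave 6 higher at an unadjusted p under 0.05, beside the 6.25% of all genes. Of 11 genes that ATF4 induces or that encode it, 6 rose and 1 fell in mutant centrocytes against centroblasts, and 2 rose and 1 fell in controls, shares of higher calls near those 48.8% and 21.2% of all genes. Between genotypes, Atf4 itself was lower in mutant centroblasts, beside the 3.38% of all genes, and the others of that list were not called in either zone. Atf4 averaged 329 ± 51.6 TPM in mutant and 412 ± 29.0 TPM in control centroblasts (limma log2 -0.34, adjusted p = 0.046).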

How the data were processed

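RNA from sorted mouse germinal centre B cells was measured in 20 libraries. The labels' protocols name total RNA and a stranded mRNA kit. The authors deposited TPM for each symbol. STAR and mm10 are named in the submitters' processing notes, without versions; annotation and counting tool are not known from the sources used. These TPM add up to one total per library and hold no read depth. Members and gene lists were chosen with earlier results of these data known.

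From the deposited TPM, log2(TPM + 1) was fitted with limma 3.58.1 in R 4.3.3 (4 group means, 20 libraries, trend and robust settings, two-sided, Benjamini-Hochberg over 11386 genes that reached 1 TPM in 5 or more libraries, threshold 0.05); fold changes are on that scale, which understates those of low genes. The fit was also run on simulated data in which a gene had the same spread in every library. Such data do not mimic libraries that stand apart, as centroblast mutants 4 and 5 did. No 2 libraries held identical values. Full statistics are given for up to 4 called genes per branch and comparison (smallest adjusted p), and per-library values for up to 3 per branch with the largest called change, plus related pairs; Tyms is described in full because of its call without centroblast mutants 4 and 5, chosen after its values were seen. Alternatives were the pseudocount, the filter, median-of-ratios scaling, the libraries fitted, array weights, the empirical Bayes settings, a replicate block, and leaving out each library or centroblast mutants 4 and 5; median-of-ratios scaling without those 2 was added after seeing the data. Promoters come from RefSeq (GRCm38.p6).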

Additional observations from a re-analysis of the deposited data

Results flagged for a closer look

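In 6 of 148 groups of 5 libraries, the highest or lowest value lay far from the rest by Dixon's criterion, where chance flags about 1 group in 20, or 7.4 of 148. The high ones were Cad in centroblast mutant 1 (36.4 TPM), Aprt in centrocyte control 3 (130.3 TPM) and Phgdh in centrocyte mutant 2 (141 TPM). The low ones were Dhodh in centrocyte control 2 (16.4 TPM), Umps in centroblast mutant 5 (60.1 TPM) and Nme1 in centroblast mutant 1 (375 TPM). Of the 6, 3 were in mutant centroblasts, and 1 of those was library 5.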

How the results depend on the processing

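Of the 21 zone calls in mutants 14, and of the 12 in controls 10, held under every alternative tried; of the 2 genotype calls in centroblasts, 0 did. Called genes in the centroblast genotype comparison were 1 with no filter, 4 with median-of-ratios scaling, 0 with only the libraries compared, 5 with array weights and 1 to 7 on leaving out a library (7 without centroblast mutant 1). In centrocytes, 0 as reported, they were 2 with median-of-ratios scaling, 4 with only the libraries compared, 6 with array weights, 2 without centroblast mutants 4 and 5, 2 with both changes, and 0 to 1 on leaving out a library. Zone calls in controls were 21 with array weights, 20 with median-of-ratios scaling without centroblast mutants 4 and 5, and 11 to 17 on leaving out a library (17 without centroblast mutant 5, which enters that comparison only through the shared spread); in mutants they were 21 to 24. The interaction had 0 calls throughout. Gart between zones in mutants was -0.0006 on the log2 scale with median-of-ratios scaling; the cause of these changes was not tested beyond the construction of each setting. The labels do not say that a number marks a shared mouse. Correlations were taken on log2(TPM + 1) after the 4 group means were removed. Same-numbered centrocyte and centroblast libraries were over 0.1 in 4 of 5 pairs per genotype, a hint of pairing that fell short of every pair. By that measure 5 of 10 mutant and 8 of 10 control libraries correlated best with their own number. Mutant and control libraries, which cannot share a mouse, were over 0.1 in 3 of 5 same-numbered pairs in centrocytes (0.0297 to 0.177) and 1 of 5 in centroblasts. A shared number is thus not shown to mark a mouse. A replicate block of genotype and number gave 22 zone calls in mutants, adding Mthfd2 (adjusted p = 0.046). In controls it gave 13, adding Ppat (adjusted p = 0.049). For the genotype comparisons the block was the number alone, shared by mutant and control libraries, so it does not stand for a mouse. That block gave 2 calls in centroblasts and 1 in centrocytes (Shmt1, adjusted p = 0.047). Depth is unknown, and 5 libraries a group limit the precision of each value.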
